A study of Mus musculus with 7 samples.

Results

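Trem2 Cd72 macrophages of the mouse seminal vesicle were taken as cells with at least 500 genes, at most 10% mitochondrial UMIs, at least 10 UMIs over C1qa, C1qb and C1qc, at least 1 UMI of Trem2 or Cd72, no UMI of Mrc1 or Cd163 and no UMI of Cd3d, Cd3e or Cd3g. A UMI is the count of 1 captured mRNA molecule. By this rule 408 of 40342 cells kept were members, out of 1340 cells that met the C1q and Cd3 limits and are called C1q macrophages here. Of the other C1q macrophages, 304 had Mrc1 or Cd163 and neither Trem2 nor Cd72 (Mrc1 Cd163 macrophages), 479 had a UMI of both pairs and 149 had a UMI of neither. The members were thus chosen by the UMIs of these 10 genes in the same cells, so the levels of those genes are a description and were not tested.

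TREM2 is a lipid-sensing receptor that signals through the adaptor TYROBP and is known from microglia, osteoclasts and lipid-laden macrophages. CD72 is an inhibitory receptor best known from B cells, and the 3 C1q chains form the recognition unit of the classical complement pathway, which tissue macrophages make. MRC1 and CD163, whose absence the rule requires, are scavenger receptors typical of perivascular and other long-lived resident macrophages.

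All mice were wild-type males. The aging pool held 10 C57BL/6J mice that were tagged and run together, with 2 mice of 3 months, 2 of 20 months, 2 of 28 months, and 2 each of 20 and 28 months that had been transiently treated with rapamycin. The diet pool held 8 FVB/NJ mice of 3 months, 2 each on a control diet, under caloric restriction, on a high fat diet and on a low protein diet. Another 3 FVB/NJ mice of 3 months (control, high fat and low protein) were run as single libraries, the diet individuals, as were a young FVB/NJ mouse of 3 months and an old one of 18 months, the young and old individuals. Strain, pool, diet and most of the age difference cannot be told apart between the pools, and with 2 mice a condition the power within a pool was low.

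The young and old individuals went against their tissue label. In the cells other than C1q macrophages, Svs5, a major seminal vesicle secretory protein, was at 3.57 CPM (UMIs of a gene scaled to a common total of UMIs per library, the usual unit of level) in the young and 3.06 CPM in the old individual, against 37087 CPM or more in each of the other 21 mice. The sum of 6 genes known from the epididymis (Lcn8, Lcn9, Gpx5, Adam7, Cst8 and Crisp1, picked after their values were seen) was 40625 and 69388 CPM in those cells, against 620 CPM or less elsewhere. Members of the same libraries held 20783 and 26253 CPM of these 6 genes, so the levels and counts of calls that rest most on the young and old individuals are also given without them.

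The mice held from 2 to 45 members, with a median of 19, and 17 of 23 mice held at least 10. There were 197 members among 5014 cells in the aging pool, 121 among 5312 in the diet pool, 12 among 11739 in the diet individuals and 78 among 18277 in the young and old individuals. The median member had 3099.5 UMIs and 1044 genes, close to the 3096.5 UMIs of the median Mrc1 Cd163 macrophage. Median depth per mouse ran from 2717 to 4082 UMIs in the aging pool and from 2509 to 4059 in the diet pool, but from 1043 to 1446 in the 5 single libraries. Of 177 barcodes that occurred in more than 1 library, 4 belonged to members, and no barcode occurred in 2 mice of a pool.

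Trem2 (chr17:48346401-48354147, plus strand, GRCm38) was detected without Cd72 in 201 members, Cd72 (chr4:43446462-43454628, minus strand) without Trem2 in 80, and both in 127. A single UMI of either gene let 132 members in, 95 had 2 UMIs, 73 had 3 and 108 had 4 or more. Near the C1q limit, 59 members had 10 to 14 C1q UMIs, while 40 cells with 5 to 9 would otherwise have been members. Another 125 cells missed the rule by a single Mrc1 or Cd163 UMI and 10 by a Cd3 UMI. Over the 17 mice with at least 10 members, Trem2 ran from 217 to 1432 CPM with a median of 468 and Cd72 from 66.4 to 482 CPM with a median of 263. The highest Trem2 levels, 1432 and 1077 CPM, belonged to the young and old individuals, without which Trem2 ran from 217 to 728 CPM (median 465) and Cd72 kept its range (median 263).

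A UMI of Trem2 was found in 80.4% of members, but in 0.647% of 3557 cells of a fibroblast gate and 0.667% of 300 cells of a B cell gate, whose median depths were 2649 and 2607 UMIs. For Cd72 the shares were 50.7% of members, 0.815% of the fibroblast gate, 5.56% of 162 dendritic cells and 18.3% of B cells, which make this receptor themselves. B cell genes were sparse in the members: of 10 B cell markers, 9 had a UMI, the most abundant was Ighm at 79.4 CPM, and the sum over the list was 173 CPM.

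The promoters of both genes that let a cell in are shown with that of Ctss, which was higher in the members, and that of Mrc1, which kept cells out. Each run holds 250 bases before and 50 after the RefSeq start site (GRCm38.p6), 5′ to 3′ on the gene's strand, and capitals mark the letters GAGGAAG or, on the other strand, CTTCCTC, the core that ETS factors such as PU.1 of macrophages bind. The windows are chr17:48346151-48346450 for Trem2 on the plus strand, chr4:43454577-43454876 for Cd72 on the minus strand, chr3:95526536-95526835 for Ctss on the plus strand and chr2:14229164-14229463 for Mrc1 on the plus strand.
Trem2: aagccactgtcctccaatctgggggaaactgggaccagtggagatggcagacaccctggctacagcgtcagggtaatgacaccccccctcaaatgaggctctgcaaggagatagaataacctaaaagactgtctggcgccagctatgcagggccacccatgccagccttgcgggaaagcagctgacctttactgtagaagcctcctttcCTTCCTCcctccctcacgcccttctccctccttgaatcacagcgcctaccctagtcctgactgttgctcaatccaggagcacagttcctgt
Cd72: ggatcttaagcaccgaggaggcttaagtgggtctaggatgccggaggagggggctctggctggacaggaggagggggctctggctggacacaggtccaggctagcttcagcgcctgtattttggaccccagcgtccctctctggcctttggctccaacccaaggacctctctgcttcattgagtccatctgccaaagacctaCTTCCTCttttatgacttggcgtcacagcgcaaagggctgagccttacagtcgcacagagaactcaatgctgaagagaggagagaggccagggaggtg
Ctss: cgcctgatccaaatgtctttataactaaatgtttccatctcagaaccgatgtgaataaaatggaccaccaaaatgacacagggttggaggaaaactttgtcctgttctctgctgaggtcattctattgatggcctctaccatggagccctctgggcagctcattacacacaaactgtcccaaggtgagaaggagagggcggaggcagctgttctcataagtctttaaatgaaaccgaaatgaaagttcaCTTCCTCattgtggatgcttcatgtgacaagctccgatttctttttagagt
Mrc1: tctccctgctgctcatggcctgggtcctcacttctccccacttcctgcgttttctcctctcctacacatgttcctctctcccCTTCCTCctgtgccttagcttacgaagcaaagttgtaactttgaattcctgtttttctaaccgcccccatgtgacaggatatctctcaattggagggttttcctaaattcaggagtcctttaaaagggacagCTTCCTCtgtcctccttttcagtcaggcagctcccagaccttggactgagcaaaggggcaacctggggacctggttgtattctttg
The letters occurred 1 time in the windows of Trem2, Cd72 and Ctss and 2 times in that of Mrc1, on either side of the rule. Of 32851 RefSeq promoters, 13.6% held them, as did 15.7% of 856 promoters of the genes tested, 22.9% of 105 promoters of 80 genes that were higher in the members and 13.5% of 148 promoters of 117 genes that were lower. A match says only that the letters are there.

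General macrophage genes were present. Csf1r, the receptor for the growth factor that most macrophages depend on, was detected in 64.5% of members, Cd68 in 63.0%, Adgre1 (F4/80) in 39.5%, Fcgr1 in 19.6%, Itgam in 15.7% and Mertk in 5.88%, while Csf1r was found in 0.815% of the fibroblast gate. Over the 17 mice Csf1r ran from 138 to 662 CPM with a median of 324, and Cd68 from 183 to 519 CPM with a median of 387. Without the young and old individuals Csf1r ran to 494 CPM with a median of 297 and Cd68 to 511 CPM with a median of 378. Itgam was at 0 CPM in the lowest mouse, 59.2 in the median mouse and 1134 in the highest.

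Apoe, Fth1 and Cd74 had the 3 highest mean levels in the members. Apoe, the lipid carrier that TREM2 binds, had a mean level over the 17 mice of 29036 ± 16817 CPM (SD, n = 17), with 9707 CPM in the lowest mouse, 23491 in the median and 68004 in the highest. Its highest levels, 68004 and 65578 CPM, belonged to the young and old individuals, and without them its mean was 24002 ± 9604 CPM (n = 15). Fth1, the ferritin heavy chain, was at 28339 ± 6348 CPM over the 17 mice and 29342 ± 6014 over the 15, and Cd74, the invariant chain of MHC class II, at 26266 ± 6557 and 27479 ± 5976 CPM, so the order of these 3 genes changed. The chemokine Ccl4 came after them in both, over the 17 mice at 18210 ± 9252 CPM, with 913 CPM in the lowest mouse, followed by Tmsb4x at 16732 and Cst3 at 13333 CPM. Malat1, H3f3b, Ftl1, Cxcl2, H2-Aa, H2-Ab1 and Rps29 lay between 6842 and 12510 CPM. The same 15 genes were highest without the young and old individuals. The secretory transcripts Svs5, at 13058 ± 20412 CPM, and Svs4, at 7292 ± 12880 CPM, were also among the 15 highest, and both were at 0 CPM in the lowest of the 17 mice.

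Secretory RNA was at a low level in the median member and at a high level in few. A UMI of Svs5 was detected in all 330 members outside the young and old individuals and in 0 of 78 members of those libraries, which together is 80.9%. The 10 secretory epithelium genes made up a median of 14854 CPM per mouse, against 16543 CPM in Mrc1 Cd163 macrophages. In control mouse 1 of the diet pool they made up 20.8% of the UMIs of 20 members, of which 97.9% lay in a single cell, and in control mouse 2 14.7% of the UMIs of 6 members, of which 97.9% again lay in 1 cell. The median cell of these 2 mice held 0.469% and 0.524% secretory UMIs. In the aging pool the median cell of a mouse held 1.05 to 1.89%, and the richest cell held from 7.45% of the mouse's secretory UMIs in 28 months mouse 2 to 48.9% in 28 months mouse 1. Across all mice 10 members held 10% or more, and results were also computed without them.

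The share of members among all cells differed between the sets of mice more than their share among macrophages. Members were 4.24 ± 1.65% of cells (SD, n = 10) in the aging pool, with a lowest mouse of 2.25%, a median of 3.997% and a highest of 8.20%, and 2.55 ± 1.12% (n = 8) in the diet pool, from 0.898% through a median of 2.67% to 3.81%. The pools overlapped. In the diet individuals they were 0.0987 ± 0.0789% (n = 3), below every mouse of either pool, and in the young and old individuals 0.360% and 0.494%. Among C1q macrophages the means were 28.1 ± 8.90%, 33.4 ± 10.5% and 30.5 ± 9.38%, with 40.7% and 39.1% in the young and old individuals. The lowest share among macrophages, 13.6% in 3 months mouse 1 of the aging pool, rests on 8 of 59 cells with a 95% Wilson interval of 7.03 to 24.5%, which covers counting error only, and the highest, 47.6% in control mouse 1 of the diet pool, on 20 of 42 cells with an interval of 33.4 to 62.3%.

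**Figure D1:**
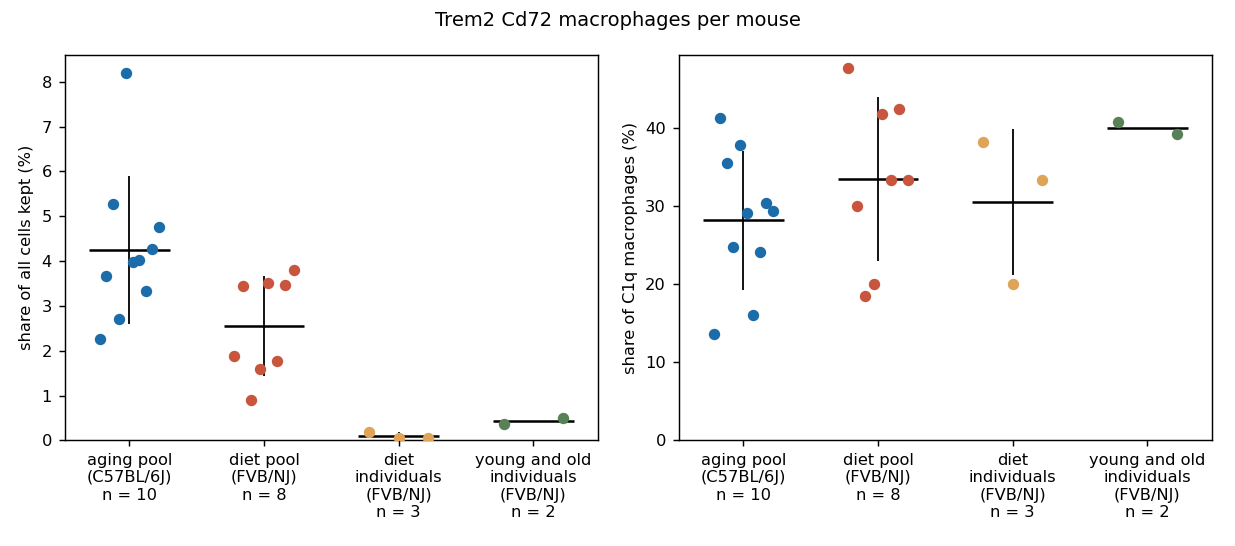
Each point is 1 mouse. The vertical axes give members as a percentage of all cells kept (left) and of C1q macrophages (right), by set of mice, with the mean as a horizontal line and the SD as a vertical line for sets of 3 or more. The diet individuals lie at 0.0987% of cells on average but at 30.5% of C1q macrophages.

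None of 10 comparisons of shares passed 0.05 after Benjamini-Hochberg adjustment over all of them. In two-sided exact permutation tests over mice, the aging pool exceeded the diet pool by 1.69 percentage points of all cells (p = 0.0169, adjusted p = 0.0847), and the diet pool exceeded the diet individuals by 2.45 points (p = 0.00606, the smallest that 8 against 3 mice allow, adjusted p = 0.0606). Without 3 months mouse 1 the first difference was 1.91 points, and without 20 months mouse 2 it was 1.86 points, both past the adjusted threshold. Within the aging pool, the 2 mice of 3 months held 2.96 ± 0.996% and the 8 older mice 4.57 ± 1.66% of cells (exact permutation p = 0.222, adjusted p = 0.330). Rapamycin-treated mice of 20 and 28 months held 5.30 ± 1.96% (n = 4) and untreated ones 3.84 ± 1.09% (n = 4; exact permutation p = 0.257, adjusted p = 0.330). Among C1q macrophages the 5 exact permutation p values of the same comparisons ran from 0.219 to 0.956.

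The members differed from Mrc1 Cd163 macrophages of the same mice in many genes. Rgs1, Pmepa1, Tgfbr1, Ctss and Il1b were higher in the members, and Ccl8, F13a1, Retnla, Ccl24, Ccl7 and Pf4 were lower. UMIs were summed per mouse and group in 13 mice with at least 10 cells of each, and edgeR's quasi-likelihood test with mouse as a block called 105 of 852 genes higher (12.3% of those tested) and 145 lower (17%), together 250 (29.3%), at a Benjamini-Hochberg adjusted p under 0.05. The median log2 fold change over all genes tested was -0.01. The counts per gene list below stand beside these shares over all genes tested. The study names Tgfbr1 for its Trem2 macrophages and Ccl8, Ccl7 and Bmp2 for its Mrc1 macrophages. It drew these genes from the same data, so their calls are not independent support. Ccl8, Ccl24 and F13a1 were low in the members and passed the filter on low counts through the Mrc1 Cd163 macrophages. Levels in this comparison are CPM scaled by TMM factors. Without the young and old individuals 213 genes were called. Of 55 genes selected by the naming rule and called over the 13 mice, 54 were tested again and 0 reversed. Fold changes were compared for 52 genes, and 52 kept their direction. The median change in log2 fold change was 0.06 and the largest 0.43 (Retnla), and 47 of the 52 were called. The other 5 were Apoe, Fth1, Ftl1, H2-DMa and H2-DMb1, with edgeR adjusted p values of 0.0519 to 0.0746. Without the 10 cells rich in secretory RNA 257 genes were called. Against all other C1q macrophages, over 17 mice, edgeR called 144 of 1192 genes higher in the members and 169 lower. Several other settings gave far fewer calls, and their counts stand in the closing section on processing.

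**Figure D2:**
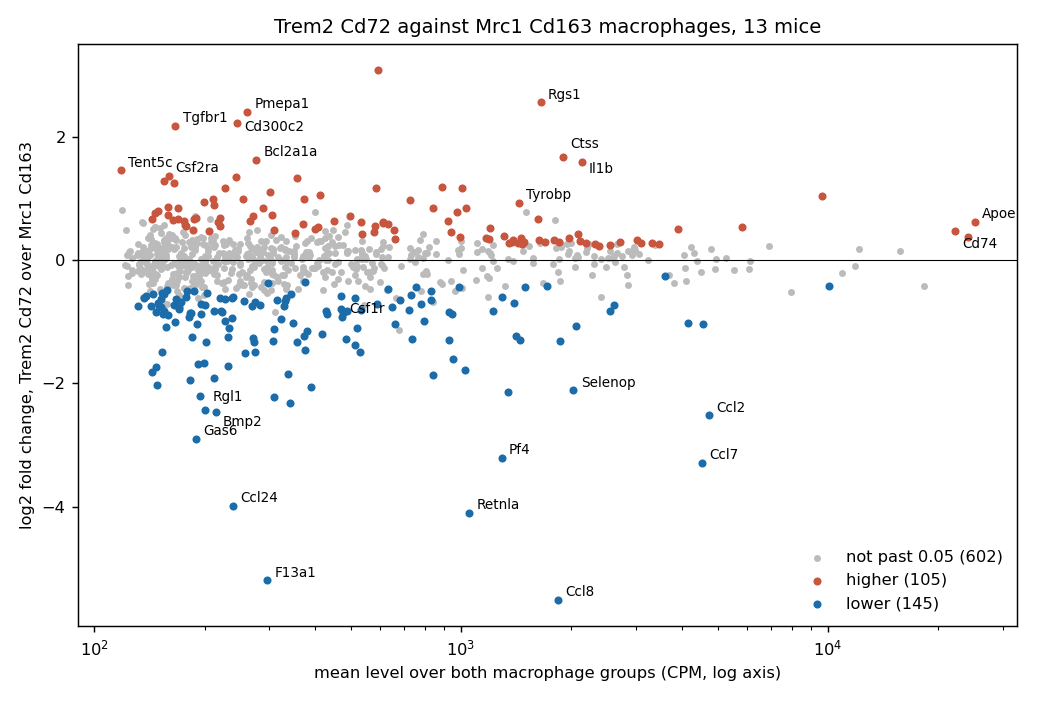
Each point is 1 of 852 genes, with the mean CPM over both macrophage groups on a log horizontal axis and the log2 fold change of Trem2 Cd72 over Mrc1 Cd163 macrophages on the vertical axis, over 13 mice. The 105 genes called higher are red, the 145 called lower are blue, and among the labelled genes the falls reach further (Ccl8 at -5.51) than the rises (Rgs1 at 2.56).

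Lysosomal hydrolases and their cofactors leaned towards the members: 6 of 19 tested were higher, 2 were lower, and the median log2 fold change was 0.27. Ctss, the cathepsin that trims the invariant chain from MHC class II, ran from 1800 to 4090.5 CPM with a median of 2994, against 413 to 1466 CPM with a median of 982. The groups did not overlap, and Ctss was higher in 13 of 13 mice (log2 fold change 1.68 ± 0.18 SE, edgeR adjusted p = 5.2e-06). Ctsz and Man2b1 were higher by 0.85 and 0.94, and so were Ctsh and Npc2. Ctsb, another cathepsin, was lower by -0.73, as was Grn. Ctsd, with means of 987 and 720 CPM, was not called (0.32 ± 0.25, adjusted p = 0.37). Ctss, Tyrobp, Aif1 and Laptm5 were the 4 of 11 general macrophage genes that were higher, and Lyz2 (-1.02 ± 0.28) and Csf1r (-0.92 ± 0.14) the 2 that were lower.

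**Figure D3:**
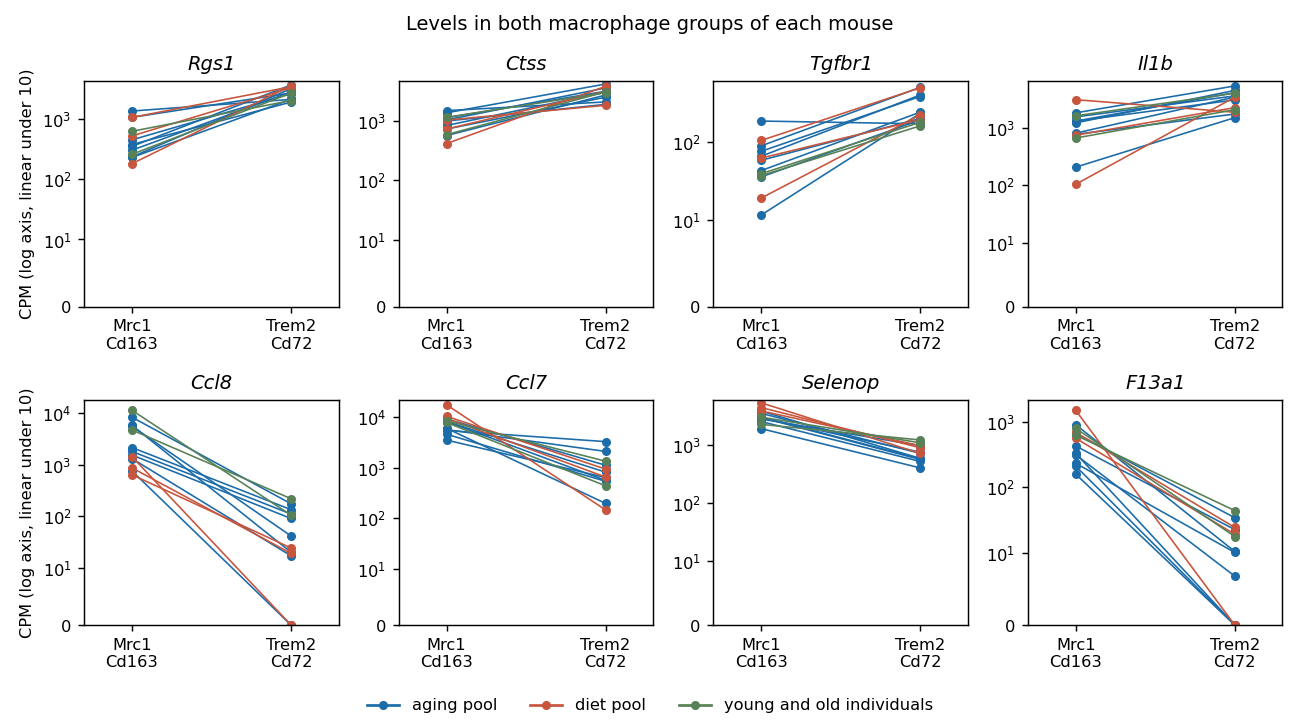
Each line joins the level of a gene (TMM-scaled CPM, log axis, linear under 10) in the Mrc1 Cd163 and Trem2 Cd72 macrophages of 1 of 13 mice, coloured by set. Rgs1, Ctss, Tgfbr1 and Il1b were higher in the Trem2 Cd72 cells of 12 or 13 mice, and Ccl8, Ccl7, Selenop and F13a1 were lower in 13 of 13.

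Of 13 genes of the TREM2 pathway 3 were tested, and 2 were higher. Tyrobp, the adaptor of TREM2, ran from 1090 to 2644 CPM with a median of 1831 in the members and from 460 to 1902 CPM with a median of 924 in Mrc1 Cd163 macrophages. The ranges overlapped, but Tyrobp was higher in all 13 mice (0.93 ± 0.11). Apoe had medians of 25725 and 16429 CPM and was higher in 10 of 13 mice (0.62 ± 0.17, adjusted p = 0.0111). Genes known from lipid-laden and disease-associated macrophages did not lean one way: of 11 tested, Cd9, Apoe and Npc2 were higher and Cd36, Plin2, Ctsb and Abca1 lower, with a median log2 fold change of 0.12. Cd9, a tetraspanin, was at a median of 191 CPM against 82.1 (1.29 ± 0.27), while the fatty acid transporter Cd36 was at 106 against 414 CPM (-1.33 ± 0.32) and Plin2, which coats lipid droplets, at 185 against 382 CPM (-0.96 ± 0.24). In the iron list Fth1 was higher by 0.37 ± 0.12 and Ftl1, the ferritin light chain, lower by -0.42 ± 0.14.

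Among cytokines both interleukin-1 genes were higher in the members. Il1b ran from 1487 to 5293 CPM with a median of 3373, against 103 to 3056 CPM with a median of 1207, and was higher in 12 of 13 mice (1.59 ± 0.27, edgeR adjusted p = 0.00032). Il1a had medians of 671 and 302 CPM and was higher in 12 of 13 mice as well (1.18 ± 0.29, adjusted p = 0.0063). The ranges of the groups overlapped for both. Of the 8 cytokine and growth factor genes tested, Bmp2, a bone morphogenetic protein, and Hbegf, an EGF receptor ligand, were lower, Bmp2 with medians of 44.0 and 300 CPM (-2.46 ± 0.32) and Hbegf by -1.94 ± 0.34. Tnf, with means of 736 and 1014 CPM, did not pass the test (adjusted p = 0.34).

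The chemokine genes were mostly lower, 10 of 15 tested, against 17% of all genes tested. Cxcl16 was the single one higher, and the median log2 fold change was -1.50. Ccl8 (chr11:82115185-82116799) showed the largest fall. It ran from 0 to 220 CPM in the members with a median of 41.6, and from 641 to 11482 CPM in Mrc1 Cd163 macrophages with a median of 1827, without overlap (-5.51 ± 0.36, edgeR adjusted p = 6.9e-09). Its neighbours in function Ccl7 and Ccl2, which recruit monocytes, had medians of 657 against 8238 CPM (-3.29 ± 0.38) and 1392 against 6692 CPM (-2.52 ± 0.31), and both were lower in 13 of 13 mice. Ccl24, an eosinophil attractant, was at 0 CPM in the median mouse against 372 (-3.98 ± 0.58). Pf4 was lower by -3.21 ± 0.49, with 1 mouse the other way. Ccl3, Ccl4 and Cxcl2, with means of 3476, 16886 and 6375 CPM in the members, were not called (log2 fold changes of -0.37, -0.42 and -0.52). In a fit of 14840 genes without the filter on low counts, edgeR called 215 higher (1.45%) and 190 lower (1.28%), together 405 (2.73%). Of 8 chemokines below the filter, Cxcl9 (2.72) and Cxcl14 (1.98, in 27.2% of members against 7.24%) were higher and Cxcl13 and Cxcl3 lower in that fit.

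Receptors fell on both sides. Tgfbr1, a receptor of TGF-beta, ran from 159 to 492 CPM with a median of 219 in the members, against 11.4 to 183 CPM with a median of 57.5, and was higher in 12 of 13 mice (2.18 ± 0.25). Pmepa1, a target gene and inhibitor of TGF-beta signalling, was higher in all 13 mice with medians of 429 and 58.7 CPM (2.41 ± 0.28). Csf2ra, the alpha chain of the GM-CSF receptor, had medians of 229 and 87.9 CPM and did not overlap (1.37 ± 0.26). Tgfbr2 and the anaphylatoxin receptors C5ar1 and C3ar1 were lower, the latter by -1.49 ± 0.27 and -0.65 ± 0.22. They belong to the complement list as well, where 4 of 4 genes tested outside the rule were lower, among them Cfp (properdin) by -2.20 ± 0.46. Another 4 genes were among the largest rises: Rgs1, which dampens G protein signalling, with medians of 2683 and 375 CPM (2.56 ± 0.26), the receptor Cd300c2 (2.22 ± 0.28), Bcl2a1a, an inhibitor of apoptosis (1.63 ± 0.28), and Tent5c, a poly(A) polymerase (1.46 ± 0.34). Bcl2a1a has near-identical copies in the genome, so its level is uncertain.

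Of 7 genes tested on the list of MHC class II and its co-stimulatory ligands 4 were higher in the members by small steps, H2-DMb1 by 0.63, H2-Ab1 by 0.53, H2-DMa by 0.49 and Cd74 by 0.47. H2-Aa, H2-Eb1 and the co-stimulatory ligand Cd86 were not called, and the median was 0.47. Without the young and old individuals H2-DMa and H2-DMb1 were not called either (edgeR adjusted p = 0.0531 and 0.0746). Cd74 ran from 17119 to 35600 CPM with a median of 23815 against 8199 to 28202 CPM with a median of 20072, so the ranges overlapped, though it was higher in 12 of 13 mice (adjusted p = 0.0095).

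Most genes tested of LYVE1-type resident macrophages were lower. Of 8 resident genes tested 7 were called, all lower, and the median was -2.01. F13a1, a subunit of clotting factor XIII, was at 0 to 44.0 CPM against 160 to 1522 CPM (-5.19 ± 0.31), and Selenop, a selenium transport protein, at 402 to 1222 against 1919 to 5365 CPM (-2.11 ± 0.15), both without overlap. Gas6, a bridging ligand between dying cells and phagocytes, was lower by -2.90 ± 0.30. Stab1, Cd36 and the inhibitory Fc receptor Fcgr2b were the 3 of 4 scavenger and phagocytic receptors tested that were lower. Of the 21 genes of that list below the filter on low counts, 20 could be fitted without it. Of these 4 were higher (Itgax, Havcr2, Itgb5 and Scarb2, by 3.28, 2.90, 1.75 and 1.27) and 0 lower. Retnla, a gene of alternative activation, was at 0 CPM in the median mouse against 1622, with 1 mouse at 1575 (-4.10 ± 0.96), and Rgl1 was lower by -2.43 ± 0.34. This group of genes is linked to Mrc1 and Cd163 expression, which the rule used.

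Interferon-stimulated genes were lower in 6 of 8 tested, with Bst2 higher and a median of -0.92. Ifit1 had medians of 218 and 791 CPM (-1.86 ± 0.46), Cxcl10 914 and 2278 CPM (-1.32 ± 0.23), Rsad2 530 and 1669 CPM (-1.29 ± 0.38), and Ifitm3 was lower by -0.98 ± 0.19. Immediate early and heat shock genes, a sign of tissue dissociation, were lower in 6 of 19 tested and higher in 1 (Btg2), with a median of -0.34. Ier3 was lower by -1.60, Egr1 by -1.29, Jund by -0.83 and Zfp36 by -0.82. These stress genes moved with the comparison, and their part in the other differences was not tested. The secretory genes Svs5 (-0.09 ± 0.47) and Svs4 (-0.14 ± 0.48) were not called, nor were S100a6 and Nr4a1 of the monocyte list or Gsn of the fibroblast list. Of 2 cell cycle genes tested Pcna was lower, by -0.67.

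Of 4 microglia genes tested 2 were higher, Tgfbr1 among them, and Fcrls, a Fc receptor-like gene of microglia, was lower (-2.02 ± 0.32). Another 11 genes of the list were too sparse to pass the filter on low counts, and 10 of them could be fitted without it. In that edgeR fit, where 1.45% of all genes were higher, 4 of the 10 were higher (Tmem119, Olfml3, Cx3cr1 and Selplg, by 2.97, 1.87, 1.69 and 1.21) and 0 lower. Cx3cr1, the fractalkine receptor, was detected in 37.8% of members and 12.8% of Mrc1 Cd163 macrophages, and Tmem119 in 16.9% and 1.64%. P2ry12, found in 4.41% and 6.91%, and Siglech, in 9.56% and 13.8%, were called in neither direction, and Sall1, the microglial transcription factor, was found in 0 of 408 members, which allows a share of cells with a UMI of up to 0.735% and sets no limit on the share that expresses the gene. Itgax (CD11c) was detected in 26.2% and 3.29%, Havcr2 (TIM-3) in 34.6% and 3.95%, and Tnfsf13b (BAFF), a survival factor of B cells, in 24.5% and 3.29%. In that fit of 14840 genes Cx3cr1, Tmem119, Itgax, Havcr2 and Tnfsf13b were called higher, with adjusted p values of 8.5e-07, 6.2e-06, 4.1e-11, 4.5e-12 and 2.2e-06. Of 15 resident genes that failed the filter 11 were lower in that fit, against 1.28% of all its genes, and 0 higher, among them Lyve1 (0.980% of members against 23.7%), Folr2 (0.980% against 33.6%) and Cbr2 (2.94% against 43.4%). The 16 dendritic cell markers were found in 0.245% (Zbtb46) to 11.3% (Cd24a) of members, with a median of 2.57%. In a dendritic cell gate, whose median depth was 5299.5 UMIs, the median was 33.3%, and 15 of 16 were less frequent in the members. The gate required a UMI of Xcr1 or Clec9a, few C1q UMIs and no Cd3 UMI. Xcr1, in 77.8% of the gate, was thus frequent there by definition, while Cd209a was in 1.24%. The count of 15 therefore describes the members beside the Xcr1 type of dendritic cell and is not a test. Ccl22 was found in 10.8%, Batf3 in 9.56% and Mgl2, the exception, in 8.58% against 4.32% of the gate. Itgax was found in 24.7% of the gate, close to its 26.2% of members.

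Markers of other cell types were summed over all members, beside the secretory genes given above. The 6 epididymal genes summed to 2364 CPM, of which 3599 UMIs lay in the young and old individuals and 3 in the other 21 mice. For the other lists the sum was 23.6 CPM for 16 T and NK cell markers, 14.4 for 9 endothelial, 47.3 for 8 Schwann cell, 39.4 for 10 granulocyte and mast cell, 9.85 for 5 red blood cell, 151 for 10 smooth muscle and pericyte and 352 for 16 dendritic cell markers. Fibroblast markers summed to 593 CPM, led by Gsn at 243 CPM, epithelial ones to 1046 CPM, led by Tgm4 at 288 CPM, and monocyte ones to 1461 CPM, led by S100a6 at 478 CPM, while Ly6c2, Ly6i and Chil3 of the monocyte list were at 0. Per mouse the endothelial sum had a median of 10.1 CPM in the members and 169 CPM in Mrc1 Cd163 macrophages, and 8.30 and 22.8 CPM without Lyve1, a gene of the resident list too. The dendritic sum had medians of 287 and 638 CPM and the monocyte sum 1314 and 941 CPM. In the edgeR fit without the filter Fn1 of the monocyte list was higher (1.95, though in 3.68% of members against 4.28%), and Cd209a and Mgl2 of the dendritic list, Egfl7 and Lyve1 of the endothelial list and Tagln of the muscle list were lower. Their part in the other differences was not tested.

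Of 55 named genes that were called, 0 reversed in any alternative, although 34 of the 53 tested with at least 20 cells per mouse no longer passed. The test of whether the difference between the macrophage groups itself differed between 8 mice of the aging pool and the 5 other mice called 0 of 852 genes (edgeR, 77 at an unadjusted p under 0.05). Its lowest adjusted p was 0.0692, for Ccl3, at 0.23 in the aging pool and -1.40 in the other mice.

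The members held a larger share of the interleukin-1 RNA than of the cells, and so did the other C1q macrophages. In the aging pool they made up 3.93% of cells and 1.38% of UMIs but held 35.1% of 1589 Il1a UMIs and 26.0% of 9506 Il1b UMIs. In the diet pool 2.28% of cells held 42.1% of Il1a and 32.5% of Il1b UMIs. The other C1q macrophages together held more, 45.1% of Il1a and 39.1% of Il1b UMIs in the aging pool and 45.6% and 34.7% in the diet pool, and the remaining cells held 19.8% and 34.9%, and 12.3% and 32.9%. Per mouse the Il1a share had a median of 30.1% in the aging pool, from 4.88 to 69.1%, and 37.9% in the diet pool, from 29.8 to 52.7%. Il12b, with only 308 and 285 UMIs, was held at 46.4% and 31.6%, and Tnfsf13b, with 174 and 111 UMIs, at 36.2% and 50.5%. Members held 23.7% and 25.7% of Ccl3, 16.6% and 20.9% of Tnf and 20.3% and 19.5% of Apoe UMIs. By contrast they held 2.34% and 0.936% of Il6, 2.00% and 1.12% of Ccl2 and 0.452% and 0.205% of Hbegf, most of which lay in cells other than C1q macrophages.

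**Figure D4:**
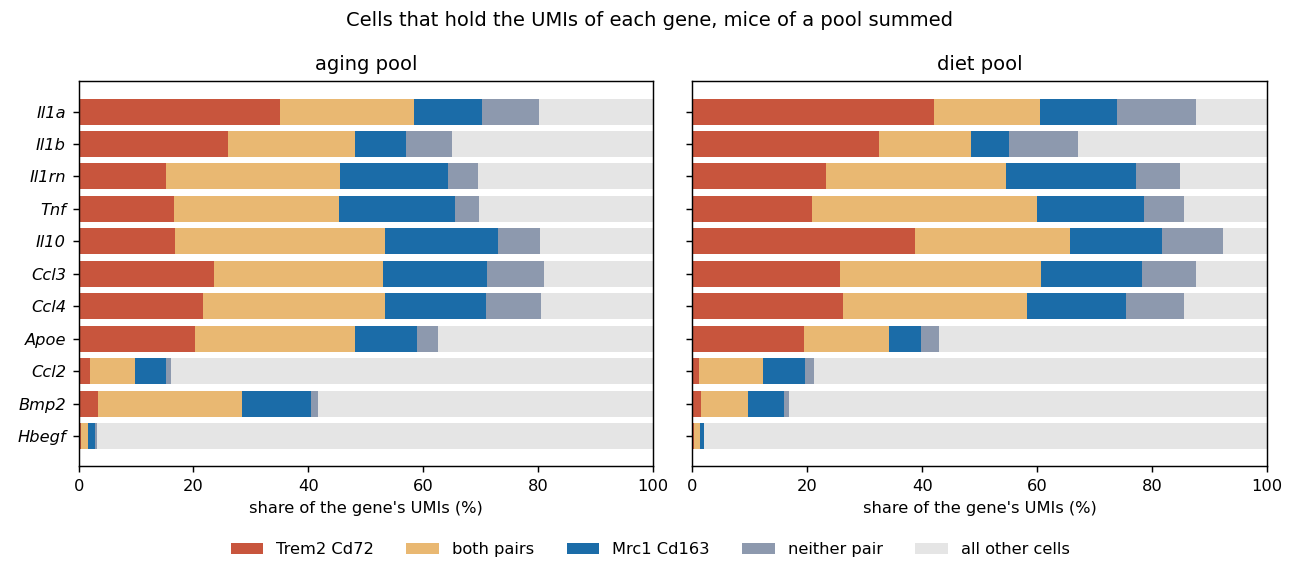
Bars give the share of each gene's UMIs, summed over the mice of the aging pool (left) and the diet pool (right), that lay in Trem2 Cd72 macrophages, in the other C1q macrophages and in all other cells. Trem2 Cd72 macrophages held 35.1% and 42.1% of Il1a UMIs but 2.00% and 1.12% of Ccl2 UMIs.

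Members found through Trem2 alone and through Cd72 alone were compared over 6 mice with at least 5 cells of each, since too few mice held 10. The edgeR test called 0 of 371 genes (21 at an unadjusted p under 0.05) and DESeq2 called 2, Mmp12 and Ctsd. Median depth was 2832 UMIs for Trem2 alone, 3245.5 for Cd72 alone and 3273 for both, and median C1q UMIs were 22, 28 and 37.

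Between the pools, the members of 9 aging pool and 6 diet pool mice with at least 10 members differed with the lowest p values in the MHC class II gene H2-Eb1 and in Gdpd3. Levels in this comparison are TMM-scaled CPM. The edgeR test called 42 of 1058 genes higher in the aging pool (3.97%) and 33 lower (3.12%), together 75 (7.09%). H2-Eb1 (chr17:34305867-34316674), a beta chain of MHC class II, ran from 4965 to 8776 CPM with a median of 6659 in the aging pool and from 170 to 562 CPM with a median of 326 in the diet pool, without overlap (log2 fold change 4.32 ± 0.27 SE, adjusted p = 6.1e-09). The other 6 genes tested on the class II list, Cd86 included, were not called, among them H2-Aa (-0.30 ± 0.16) and H2-Ab1 (-0.30 ± 0.17). H2-M2, a non-classical class I gene, was at 52.6 to 1160 CPM against 0 in 5 of the 6 diet pool mice (6.36 ± 1.01). Of the mice with too few members, 3 months mouse 1 of the aging pool was at 0 CPM of H2-M2 and control mouse 2 of the diet pool at 68.3 CPM, so over all mice the pools overlapped. Gdpd3 (chr7:126766334-126775649), a lysophospholipase D, was at 0 to 20.4 CPM in the aging pool against 302 to 511 CPM (-5.49 ± 0.37, edgeR adjusted p = 8.5e-09). For H2-Eb1 and Gdpd3 the same order of the pools was seen in other cells, in levels not scaled by TMM. In Mrc1 Cd163 macrophages H2-Eb1 ran from 3479 to 8162 CPM in 9 aging pool mice and from 243 to 388 in 3 diet pool mice, and Gdpd3 from 0 to 23.5 and from 259 to 474 CPM. In cells other than C1q macrophages H2-Eb1 ran from 39.0 to 982 CPM and from 4.28 to 21.9 CPM, and Gdpd3 from 0 to 4.89 and from 70.3 to 178 CPM. The ranges of the pools did not overlap for either gene in either kind of cell. For H2-M2 they did, at 0 to 156 CPM against 0 in Mrc1 Cd163 macrophages and 0 to 5.84 against 0 to 5.61 CPM in the other cells. Spata7 and Dcstamp, given below, overlapped in both kinds of cell as well.

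In the FVB/NJ mice outside the pools H2-Eb1 was below every aging pool mouse, while Gdpd3 varied. H2-Eb1 was at 143, 151, 241, 371 and 479 CPM in the young, old, control, high fat and low protein individuals, and Gdpd3 at 161, 269, 402, 1114 and 0 CPM. The high fat and low protein individuals held 2 members each. Spata7 was at 167 to 762 CPM in the diet pool and 0 to 104 in the aging pool (-4.02 ± 0.57), but at 17.9 and 32.3 CPM in the young and old individuals and 0 in the diet individuals. In the mice with too few members for the test, Spata7 was at 409 CPM in 3 months mouse 1 of the aging pool, inside the diet pool range, and at 1127 and 180 CPM in control mouse 2 and high fat mouse 2 of the diet pool (not scaled by TMM). Dcstamp, a protein of macrophage fusion, was lower in the aging pool without overlap (31.6 to 238 against 490 to 1074 CPM, -2.65 ± 0.36). In the young, old, control, high fat and low protein individuals it was at 89.5, 431, 643, 371 and 0 CPM, so the young individual lay inside the aging pool range.

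**Figure D5:**
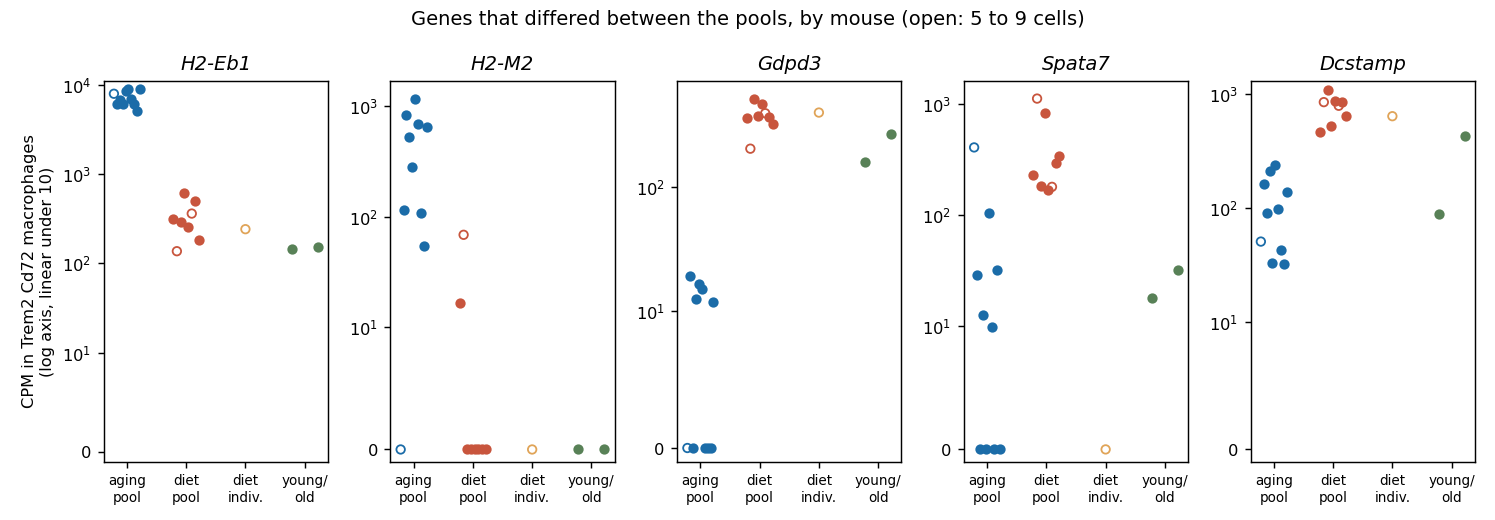
Points are mice with at least 5 members, open where they hold 5 to 9, and the vertical axis gives CPM in Trem2 Cd72 macrophages on a log axis that is linear under 10. Levels are not scaled by TMM. H2-Eb1 lies at 5074.5 to 8922 CPM in the aging pool and at 612 CPM or less in every FVB/NJ mouse shown, and Gdpd3 lies at 19.1 CPM or less in the aging pool.

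Several heat shock genes and the ubiquitin gene Ubb were higher in the aging pool. Hspa8 had medians of 6864 and 2236 CPM (1.20 ± 0.25), Hsp90aa1 4711 and 1305 CPM (1.55 ± 0.33), Hspa1a 5603 and 1292 CPM (1.66 ± 0.44) and Hsph1 1661 and 322 CPM (1.80 ± 0.46), while Ubb was higher by 1.79 ± 0.23. The heat shock genes Dnajb1 (1.61 ± 0.50, edgeR adjusted p = 0.0531), Hspa1b (1.23 ± 0.41, adjusted p = 0.0775) and Hspe1 (0.38 ± 0.41) were not called. Of 19 dissociation stress genes tested, 3 were higher and Zfp36 was lower (-0.88 ± 0.25), with a median of 0.25. Over all 1058 genes tested 3.97% were higher and 3.12% lower, so small counts in the short lists here are not results about those lists. Among lysosomal genes 2 of 23 were higher, Ctsl (1.53 ± 0.29) and Gla (1.01 ± 0.28). Of 8 interferon-stimulated genes 2 were higher, Ifitm3 (1.43 ± 0.34) and Ifi204 (1.43 ± 0.32). Among receptors 1 of 11 was lower, Csf1r (-0.62 ± 0.18, edgeR adjusted p = 0.0497). The cholesterol exporter Abca1 was lower by -0.95 ± 0.18. Ubald2 and Anxa2 were higher by 2.21 and 1.88, and Hmgn1 and Tnfaip2 lower by -1.32 and -1.28. Apoe (0.05 ± 0.30), Il1b (-0.09 ± 0.32), Tgfbr1 (0.05 ± 0.36) and Cd74 (-0.20 ± 0.17) were not called, and no gene passed among the 14 chemokine and 9 cytokine genes tested. Whether the stress genes bear on the other differences was not tested. Restricted to mice of 3 months, the fit left 1 aging pool mouse against 6 diet pool mice, so no call is drawn from it. Its log2 fold changes were 4.14 for H2-Eb1, -4.24 for Gdpd3, 2.29 for Ubb and 6.84 for Tnfaip6. With at least 5 members, 2 against 8 mice of 3 months, 10 genes were called, among them H2-Eb1, Gdpd3, Ubb and Dcstamp but not Tnfaip6.

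Few genes were called for age or rapamycin. In simulated data with a log2 change of 2 between 3 and 28 months, the age test recovered 1.24% of 161 changed genes. With a log2 change of 2 between groups, the pool and macrophage comparisons recovered 96.8% and 100%. The simulation was drawn a single time, gave all genes the same fixed spread and held no effect of the mouse. These shares therefore check the scripts and do not give the power in these mice. The low count for age says little about how much changed. Over 9 aging pool mice with 16 to 27 members, the slope on age in months with rapamycin as covariate called 1 of 1929 genes (0.0518%), Krt17 (chr11:100256217-100261029), a keratin of epithelium. Krt17 was at 527 CPM in 3 months mouse 2, at 14.7 to 68.6 CPM in the 4 mice of 20 months and at 0 in the 4 mice of 28 months (log2 change of -0.30 ± 0.04 per month, edgeR adjusted p = 0.0127). In 3 months mouse 2, 53 of 54 Krt17 UMIs lay in a single member. The other mouse of 3 months, left out with 8 members, held 1 Krt17 UMI, or 25.6 CPM unscaled, within the range at 20 months. Without 3 months mouse 2 edgeR called 0 genes. For rapamycin edgeR called 0 of 1929 genes (0%; 157 at an unadjusted p under 0.05) and DESeq2 called 3, 9530002B09Rik, Fosb and Agr2. Fosb, an immediate early gene, had the lowest edgeR p, with 550 to 997 CPM in the 4 treated mice and 186 to 388 in the 4 untreated mice of 20 and 28 months, though 634 in the mouse of 3 months (1.54 ± 0.23, adjusted p = 0.0615).

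The diets could be compared only with mice that held at least 5 members, 2 mice of the diet pool for each diet against 3 controls, of which 2 came from the diet pool and 1, with 8 members, was the control individual run as a single library. Then edgeR called 15 of 494 genes lower under caloric restriction (3.04%), 6 of 408 under high fat (1.47%) and 14 of 522 under low protein (2.68%), and 0 higher under any diet. With the diet pool alone the calls were 16, 13 and 14. Most were products of the secretory epithelium, such as Svs1, Svs6, Ceacam10 and Sva, and Cd52, a leukocyte surface peptide, was among those under caloric restriction. The secretory UMIs of the control mice of the diet pool lay almost wholly in the 2 cells described above. Without the 10 members rich in secretory RNA 0 genes were called under each diet (edgeR; 50, 25 and 24 at an unadjusted p under 0.05).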

How the data were processed

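Per the labels, dissociated seminal vesicle cells were captured with the Chromium 3′ V2 kit. The authors deposited raw UMI counts per gene and cell for each of 23 mice in 7 samples, made with Cell Ranger 6.0.1 (both pools, demultiplexed by sample tag) or 3.1.0 (single libraries) on mm10, and the submitters' processing notes also name Seurat. The condition of each mouse in a pool was read from its table's name and the multiplexing tables, matched to the study's list of animals.

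Tables were joined by Ensembl ID over 30406 genes, and 40342 of 53352 cells had at least 500 genes and at most 10% mitochondrial UMIs. Kept cells summed to between 971402 and 46333394 UMIs per mouse. UMIs of the members were summed per mouse (38314 to 138492 in the pool comparison), since the mouse is the replicate. Main tests used edgeR 4.0.16 in R 4.3.3 (quasi-likelihood, TMM, filterByExpr, Benjamini-Hochberg, threshold 0.05) on mice with at least 10 members. The 10 genes of the rule stayed in the library sizes and out of the tests. DESeq2 1.42.0 was an alternative. Scripts were tested on simulated data. Shares were compared by exact permutation over mice. No doublet caller was run. Tags separate cells of different mice in a pool, 127 members held 3 or more UMIs of other cell classes, and fits were repeated without them. Gene coordinates came from GENCODE vM21 (GRCm38). The labels do not number mice as pairs.

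The members, the 30 gene lists and the tests were chosen with earlier results of these data known. Genes were named by a rule: those in the membership rule, those the study names for its macrophage groups, up to 4 called genes per list by fold change (else the 2 highest), the 10 largest rises and falls between macrophage groups with at least 50 CPM and the same direction in 80% of mice, the 5 largest of the other comparisons, and the 15 highest levels. Genes below the filter, the stress gene Ubb and the 6 epididymal genes were named after their values were seen. Some genes that this rule names are not reported here.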

Additional observations from a re-analysis of the deposited data

Results flagged for a closer look

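Single mice stood far from the others of their pool in 9 of 30 groups of values examined by Dixon's test, where chance flags about 1 in 20 groups. Levels of single genes were examined only in mice with at least 10 members. In the aging pool, 20 months rapamycin mouse 1 had the highest share of Trem2 Cd72 macrophages, 8.20% of 244 cells against 5.26% or less in the other 9 mice. The summed level of the 18 monocyte markers was 5350 CPM in 28 months mouse 2, where a single cell held 45.3% of those UMIs, and the summed secretory markers were 124034 CPM in 28 months mouse 1, where a single cell held 48.9%. Spata7 was at 105 CPM in 20 months rapamycin mouse 2, though 3 months mouse 1, with 8 members, was higher at 409 CPM. In the diet pool H2-M2 was at 16.6 CPM in control mouse 1, Hmgn1 at 593 CPM in low protein mouse 1, Hsph1 at 1409 CPM in caloric restriction mouse 1, and Spata7 at 828.6 and Tnfaip2 at 1598 CPM in caloric restriction mouse 2. Control mouse 2, with 6 members, was higher at 68.3 CPM of H2-M2 and 1127 CPM of Spata7. H2-M2 had 4 UMIs over all members of the diet pool, and any level above the 0 of the other mice examined would be flagged. The causes were not tested.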

How the results depend on the processing

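A mouse gave 2 to 45 members, and many counts of calls changed with the settings. The 250 genes called between the macrophage groups became 405 without the filter on low counts, 47 with at least 20 cells per mouse, 112 with at least 20 C1q UMIs, 105 in cells thinned to 2000 UMIs, 72 without cells holding 3 or more UMIs of other classes, 126 in the aging pool alone and 78 without the aging pool. The last alternatives hold fewer mice, cells or UMIs. The 75 genes called between the pools became 117 with DESeq2, 191 without the filter, 38 with at least 20 cells, 30 with at least 20 C1q UMIs, 28 in thinned cells, 47 without cells holding UMIs of other classes, 4 at 3 months only (1 against 6 mice) and 10 at 3 months with at least 5 cells. Leaving out 1 mouse at a time gave 44 to 73, with 47 without 20 months rapamycin mouse 1 or caloric restriction mouse 2 and 44 without low protein mouse 2. For age the single call became 47 without the filter, 2 with a mitochondrial limit of 5%, and 0 with at least 5 cells, at least 20 cells, at least 20 C1q UMIs, thinned cells, no cells with UMIs of other classes, or 3 months against both older ages with at least 5 cells. Leaving out 1 mouse gave 0 to 3 calls, 0 without 3 months mouse 2 or either untreated mouse of 28 months. Rapamycin gave 3 calls with DESeq2 and 72 without the filter, and Trem2 alone against Cd72 alone 2 and 23. Under high fat the 6 calls became 14 with DESeq2, 15 with a replicate block and 13 in the diet pool only, and all 3 diets gave 0 without the 10 cells rich in secretory RNA. The cause of these changes was not tested.

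The difference in share of all cells between the pools ran from 1.25 to 1.91 points when 1 mouse was left out and passed the adjusted threshold at 1.91 and 1.86. Svs4, not called between the pools in the main test, was higher in the aging pool in thinned cells (1.34), without the cells rich in secretory RNA (1.69) and without control mouse 1 (2.42), as was Svs5 in the last 2 (1.56 and 2.34). Leaving out 1 mouse at a time gave -1.21 to 2.42 for Svs4 and -0.87 to 2.34 for Svs5.

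Replicate numbers mark no shared litter or batch in the labels. With them as a replicate block, age gave 1 call, caloric restriction 13 and low protein 15, on the same side as without it. Leaving out the cells rich in secretory RNA, the 3 months fit with at least 5 cells and the other diet fits were chosen after the data were seen. Of 271 alternative values for main results, 226 stayed on the same side or within 1.5 times. The diets and Trem2 alone against Cd72 alone could not be fitted at 10 or 20 cells per mouse, nor the latter without cells holding UMIs of other classes.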
